A study of Mus musculus with 9 samples.

Results

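The genes described here lie on mouse chromosome 6 around Grm7, which encodes metabotropic glutamate receptor 7. They were chosen by position, from a list of 42 genes on both sides of Grm7, and with the log2 levels of the same 9 arrays in view, including all 3 strain differences. The values below are therefore a description, and the counts of calls are printed beside those over all probe sets without being read as evidence for the list. Of the 42 genes, 39 were measured by at least 1 probe set that the platform annotation gives to a single gene. These 39, of 18193 measured genes in all, had 104 of the 45037 probe sets. Rybp had 2 probe sets, both annotated also to Rybp-ps, and gets no value, and Itpr1 and Arl8b were not named for any probe set in the annotation used here. In the reference order Gmcl1 and Anxa4 come before Aak1, so the interval runs from Gmcl1 to Srgap3. It holds 131 measured genes, 92 of which, Grm7 among them, are not on the list.

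Transcript levels were measured on Affymetrix arrays in brain hemispheres without cerebellum from untreated male mice aged 11 ± 1 weeks. The strains were the inbred parental strains C57BL/6ByJ and BALB/cJ and the inbred strain B6By.C.132.54, named as a line with BALB/c as the donor and C57BL/6By as the recipient. Each array held a pool of 10 hemispheres, with 3 arrays and 30 mice per strain, 90 mice in all. A pool averages over mice, so the spread between arrays is that between pools. Which of the 3 experimental batches an array belongs to is not labelled.

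Such a strain keeps a stretch of donor chromosome, and every gene within it comes with its donor alleles. A transcript from that stretch whose level is set by its own locus then follows the donor strain. Such transcripts of the rest of the genome mostly follow the background strain. The order of genes along a chromosome can thus be read as a sequence of donor-like and background-like levels, wherever the parental strains differ. On short-oligonucleotide arrays a strain difference can also come from a base difference under the probes, which these values do not separate from a difference in transcript level.

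The member genes do different work. Several shape neuronal contacts: the contactins Cntn3, Cntn4 and Cntn6 and the L1 family protein Chl1 are adhesion molecules of axons, and Srgap3 acts on the actin cytoskeleton below the membrane. Others act in the nucleus (Foxp1, Mitf, Bhlhe40), in the mitochondrion (Nfu1, Suclg2, Slc25a26) or in membrane traffic (Aak1, Rab7). Edem1 acts in endoplasmic reticulum quality control, and Crbn in ubiquitin-dependent turnover. Nfu1 helps to deliver iron-sulfur clusters to mitochondrial enzymes, Isy1 is a component of the spliceosome, Frmd4b is a FERM-domain scaffold protein, and Cntn6 is a contactin attached to the outer membrane leaflet.

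These 4 genes, Nfu1, Isy1, Frmd4b and Cntn6, held the probe sets that passed the test between the parental strains over all 9 arrays. Isy1 passed with or without the replicate number as a block, and Nfu1, Frmd4b and Cntn6 passed only with it. The 200 bases before their annotated starts are shown because these genes carry the calls, and no strain variant is marked in them. They are from RefSeq, build GRCm38.p6, of the strain C57BL/6J, and 32 of the 42 genes had an entry. Frmd4b has 3 annotated starts, of which the first entry is shown. That start coincides with an end of the annotated gene, and the starts used for Nfu1, Isy1 and Cntn6 do not. Capitals mark the motifs GGGCGG and CCAAT on either strand, the latter found as ATTGG and the former also as CCGCCC.
Nfu1 (chr6:87009636-87009835, plus strand): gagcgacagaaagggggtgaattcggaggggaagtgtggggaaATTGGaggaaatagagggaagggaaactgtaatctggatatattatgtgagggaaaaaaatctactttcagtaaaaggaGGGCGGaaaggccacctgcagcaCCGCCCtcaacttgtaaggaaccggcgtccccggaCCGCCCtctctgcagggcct
Isy1 (chr6:87838760-87838959, minus strand): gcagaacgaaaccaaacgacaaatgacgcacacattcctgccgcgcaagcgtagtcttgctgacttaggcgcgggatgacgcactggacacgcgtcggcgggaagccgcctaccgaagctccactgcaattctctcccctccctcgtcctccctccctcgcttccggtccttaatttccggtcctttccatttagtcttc
Frmd4b (chr6:97617658-97617857, minus strand): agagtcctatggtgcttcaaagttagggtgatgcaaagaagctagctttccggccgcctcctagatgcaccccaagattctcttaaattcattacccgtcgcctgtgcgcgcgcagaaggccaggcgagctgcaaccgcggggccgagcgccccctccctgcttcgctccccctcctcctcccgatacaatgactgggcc
Cntn6 (chr6:104492844-104493043, plus strand): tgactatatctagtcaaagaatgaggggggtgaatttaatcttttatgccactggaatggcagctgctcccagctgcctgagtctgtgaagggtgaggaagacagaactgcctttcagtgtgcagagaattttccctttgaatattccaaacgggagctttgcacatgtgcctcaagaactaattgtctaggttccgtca

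Only Nfu1 among these windows held a searched motif, with 3 GGGCGG matches and 1 CCAAT match that do not overlap. TATAAA was in none of the 4. Over 32851 promoter windows of the same length, 31% held GGGCGG, 29.3% CCAAT and 9.96% TATAAA on either strand. The windows also differ in CG dinucleotides. Isy1 has 19, Frmd4b 14, Nfu1 8 and Cntn6 2, against a median of 5 over all windows.

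The arrays were alike in overall level, with medians between 15.49 and 15.99 in linear intensity. B6By.C.132.54 replicate 3 stood apart, with the narrowest spread (interquartile range 2.731 on the log2 scale, against 2.836 to 2.982 on the others) and the weakest agreement with the other arrays of its strain (mean r 0.988). Neuron markers were bright in every strain (8.363 to 11.09 log2 intensity), while 3 of 5 cerebellar markers (Pcp2, Cbln3 and Gabra6) were under 3.968, the middle level of the whole array, and Cbln1 and Calb1 were above it. Of 37 measured markers of brain cell types, blood, meninges and pituitary, 3 were called in some comparison (Gfap, C1qb and Cldn5), and their part in the members' values was not tested.

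Setting BALB/cJ against C57BL/6ByJ asks where along the interval the parental strains differ at all. The limma fit called 1 of 104 member probe sets at an adjusted p under 0.05, where 1.43% of all probe sets were called. With 3 arrays per strain, a missing call does not show equal levels. With the replicate number as a block it called 4, against 2.12% of all. Same-numbered arrays deviated together across strains, so both counts are given. An unadjusted p under 0.05 was reached by 14, against 7.58% of all, 11 lower and 3 higher in BALB/cJ. The parental arrays did not overlap in 21, against 12.6% of all. The median difference of the 104 was -0.03 on the log2 scale, beside 0.02 over all probe sets. For 81 of the 104 the 95% confidence interval of the difference lay within 0.5 on either side of 0. Over all probe sets this held for 38223 of 45037.

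Nfu1 was lower in BALB/cJ and in B6By.C.132.54 on both of its probe sets. On probe set 1418228_at the C57BL/6ByJ arrays read 7.61, 7.40 and 7.21 log2 intensity (replicates 1 to 3), the BALB/cJ arrays 7.04, 6.76 and 6.94, and the B6By.C.132.54 arrays 6.93, 7.05 and 6.84. All 6 arrays of BALB/cJ and B6By.C.132.54 lay below all 3 of C57BL/6ByJ. The difference from C57BL/6ByJ was -0.49 ± 0.118 (SE) in BALB/cJ, or 1.41-fold lower, and -0.47 ± 0.118 in B6By.C.132.54. The parental difference of 1418228_at passed with the block (limma adjusted p = 0.0414) and not without it (0.0922). Its second probe set, 1418229_s_at, read 7.10, 7.17 and 7.06 in C57BL/6ByJ, 6.57, 6.44 and 6.81 in BALB/cJ, and 6.91, 6.75 and 6.53 in B6By.C.132.54. Here too C57BL/6ByJ stood above both other strains without overlap, although neither model called it between the parental strains (limma adjusted p = 0.0929, and 0.0784 with the block). The name of this second probe set marks probes that can match more than 1 transcript.

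Isy1 gave the 1 member call that did not need the block. On probe set 1459728_at C57BL/6ByJ read 4.36, 4.13 and 4.27, BALB/cJ 4.72, 4.81 and 4.63, and B6By.C.132.54 4.80, 4.64 and 4.53. C57BL/6ByJ was the lowest strain without overlap. The probe set was 1.38-fold higher in BALB/cJ (0.47 ± 0.0994, SE; limma adjusted p = 0.0484, and 0.0262 with the block) and 0.40 ± 0.0994 higher in B6By.C.132.54. Leaving out any 1 of the 6 parental arrays ended the call of this probe set (limma adjusted p between 0.0810, with C57BL/6ByJ replicate 1 out, and 0.238, with its replicate 2 out), as did leaving out B6By.C.132.54 replicate 2 (0.0718). The other 2 probe sets of Isy1 did not go with it: their parental differences were -0.08 and 0.09, and neither was called, so the call stands for 1 probe set and not for the gene.

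Frmd4b had the largest parental difference of the members, on probe set 1438169_a_at. C57BL/6ByJ read 5.98, 5.86 and 5.69, BALB/cJ 5.58, 5.08 and 5.18, and B6By.C.132.54 5.76, 5.06 and 5.19. Replicate 1 was the highest array in each of the 3 strains, which widened the spread within strains. Paired by number, BALB/cJ differed from C57BL/6ByJ by -0.39, -0.77 and -0.51, and B6By.C.132.54 differed from C57BL/6ByJ by -0.21, -0.80 and -0.50. The mean parental difference was -0.56 ± 0.183 (SE) without the block, 1.47-fold. It passed with the block (limma adjusted p = 0.0238) and not without it (0.334). The other 4 probe sets of Frmd4b did not go with it: their parental differences were 0.03, 0.05, 0.02 and -0.18, and none was called. On 1452123_s_at, the last of these, the parental arrays did not overlap and B6By.C.132.54 was nearer to C57BL/6ByJ. The Frmd4b call, too, stands for 1 probe set.

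Cntn6 had 1 probe set, 1422649_at, whose mean fell just under the middle level of the array. It read 4.32, 4.37 and 3.86 in C57BL/6ByJ, 3.86, 3.79 and 3.65 in BALB/cJ, and 3.89, 3.81 and 3.55 in B6By.C.132.54. C57BL/6ByJ replicate 3 reached down to the range of the other strains, yet in each numbered pair it was the higher array: the pairs differed by -0.45, -0.58 and -0.22 in BALB/cJ and by -0.42, -0.56 and -0.31 in B6By.C.132.54. The parental difference of Cntn6 was -0.42 ± 0.142 (SE), with a limma adjusted p of 0.382 without the block and 0.043 with it.

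The 4 calls with the block also depended on single arrays. With the block and 1 array left out, the number of called members ran from 0, without C57BL/6ByJ replicate 2 or BALB/cJ replicate 1 or 2, to 7 without B6By.C.132.54 replicate 3, the array that stood apart. Leaving that array out added the second Nfu1 probe set and 1 each of Aak1 and Trnt1.

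**Figure D1:**
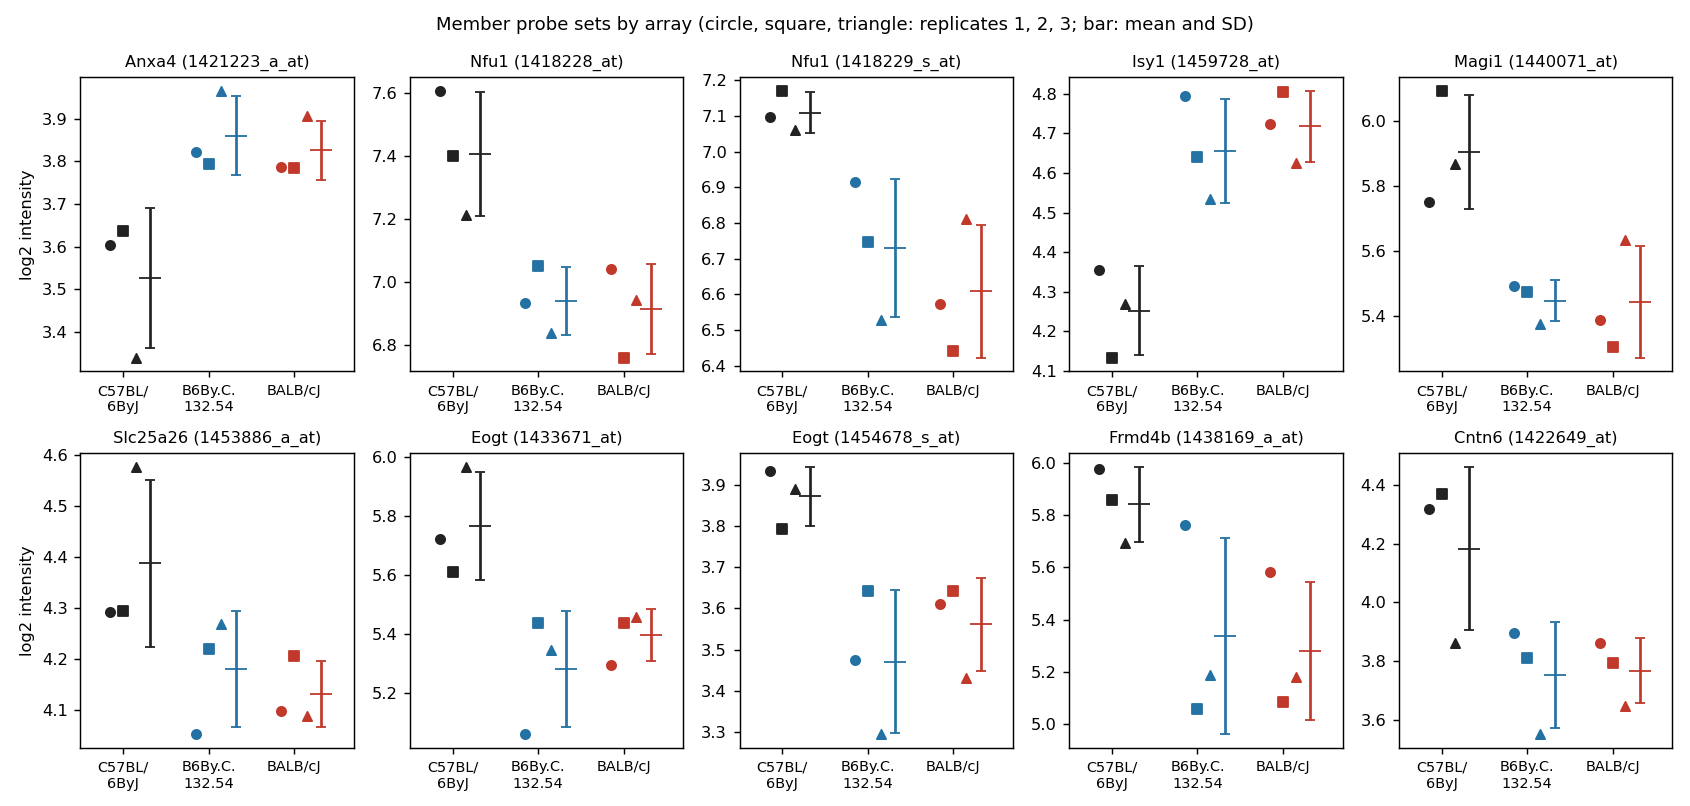
Log2 intensity of 10 member probe sets on each of the 9 arrays, by strain; circles, squares and triangles are replicates 1, 2 and 3, and bars give the mean and SD. Shown are probe sets called with the block, and those with an unadjusted parental p under 0.05 (limma) whose other strains both lay clear of C57BL/6ByJ. The lack of overlap was thus in part a condition of the choice. Other probe sets with such a p, in Anxa4, Aak1, Magi1 and Cntn3, are not shown. In Anxa4, Nfu1, Isy1, Magi1, Slc25a26 and Eogt the arrays of B6By.C.132.54 and BALB/cJ share a range that the C57BL/6ByJ arrays do not reach.

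Beyond these genes, the adhesion and wiring group (10 genes, 25 probe sets) had 4 probe sets with an unadjusted parental p under 0.05, in Magi1, Cntn3 and Cntn6. Magi1, a scaffold protein of cell junctions, had 5 probe sets that disagreed. Probe set 1440071_at read 5.75, 6.10 and 5.87 in C57BL/6ByJ, 5.39, 5.30 and 5.64 in BALB/cJ, and 5.49, 5.47 and 5.38 in B6By.C.132.54, so that C57BL/6ByJ was above both other strains without overlap (parental difference -0.46; limma adjusted p = 0.108). Probe set 1427246_at of the same gene differed by 0.35 in the opposite direction (limma adjusted p = 0.595), and the other 3 by -0.11 to 0.02. On 1 of these, 1440871_at, B6By.C.132.54 read 4.19, 4.10 and 4.38, above C57BL/6ByJ (3.99, 3.85 and 3.95) and BALB/cJ (4.02, 3.95 and 3.88) without overlap. Cntn3 differed from the pattern. On 1420739_at it read 3.95, 3.95 and 4.25 in C57BL/6ByJ, 4.05, 4.01 and 3.96 in B6By.C.132.54 and 3.85, 3.74 and 3.81 in BALB/cJ, with BALB/cJ the low strain (limma adjusted p = 0.484). The remaining members of the group, the axonal proteins Chl1 and Cntn4, the leucine-rich repeat membrane proteins Lrrn1 and Lrig1, the PDZ-domain proteins Pdzrn3 and Grip2, and Srgap3, had parental differences between -0.17 (Chl1) and 0.25 (Lrig1), and none was called.

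Among receptors, ligands and carriers no probe set was called. The 11 probe sets of Oxtr, the oxytocin receptor, Gpr27, an orphan receptor, Prok2, the secreted prokineticin 2, Il5ra, a cytokine receptor subunit, and Slc6a6, the taurine transporter, had parental differences between -0.04 and 0.20, and none had an unadjusted p under 0.05 in any comparison without the block. With it, 3 did: Slc6a6 1420148_at between the parental strains (limma adjusted p = 0.431), and Slc6a6 1421346_a_at and Oxtr 1440888_at for B6By.C.132.54 against BALB/cJ (limma adjusted p = 0.432 and 0.448). Of these 11, 5 lay at or above the median of all probe sets. Prok2 and Il5ra were below it on every probe set.

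The membrane traffic and membrane-bound group (6 measured genes, 21 probe sets) included, besides Frmd4b, 2 genes with an unadjusted parental p under 0.05. Aak1, a kinase of clathrin-coated vesicles, read 8.72, 8.31 and 8.38 in C57BL/6ByJ, 8.18, 8.12 and 7.95 in BALB/cJ, and 8.43, 8.09 and 8.05 in B6By.C.132.54 on 1435038_s_at (parental difference -0.39; limma adjusted p = 0.394, and 0.0613 with the block). On this Aak1 probe set BALB/cJ lay wholly below C57BL/6ByJ, and B6By.C.132.54 overlapped both. Its other 6 probe sets had smaller parental differences. On 1452633_s_at Aak1 read 5.67, 5.65 and 5.59 in B6By.C.132.54, above C57BL/6ByJ (5.39, 5.42 and 5.38) and BALB/cJ (5.39, 5.40 and 5.53) without overlap. Anxa4, a calcium-dependent phospholipid-binding protein, was below the median on all 3 probe sets, and they pointed in different directions (0.30, 0.13 and -0.18). Its probe set 1421223_a_at read 3.60, 3.64 and 3.34 in C57BL/6ByJ, 3.79, 3.79 and 3.91 in BALB/cJ, and 3.82, 3.79 and 3.97 in B6By.C.132.54, with C57BL/6ByJ lowest without overlap (limma adjusted p = 0.359 between the parental strains). Rab7, the small GTPase of late endosomes, Iqsec1, an exchange factor for Arf proteins, and Edem1, of endoplasmic reticulum quality control, had parental differences between -0.07 and 0.14.

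No transcription factor was called either. The 12 probe sets of Foxp1, Mitf, Bhlhe40 and Lmcd1 had parental differences between -0.17 and 0.22, and B6By.C.132.54 differed from C57BL/6ByJ by -0.19 to 0.30. On the 8 probe sets of Foxp1, a forkhead repressor, that difference was -0.19 to -0.02, and none was called. In the RNA and repair group, Trnt1, which adds the CCA end to transfer RNAs, had differences of -0.39 and -0.06 on its probe sets, Eif4e3, a cap-binding protein, -0.23 and 0.00, and Ppp4r2, a phosphatase regulatory subunit, -0.17 and -0.08. Shq1 and Rad18, of ribonucleoprotein assembly and DNA damage tolerance, ranged from -0.21 to 0.04.

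Of the mitochondrial genes other than Nfu1, Suclg2, a succinate-CoA ligase subunit, differed by -0.03 and 0.12. Slc25a26, the mitochondrial carrier of S-adenosylmethionine, behaved differently on 1428929_s_at, with 6.17, 5.96 and 5.89 in C57BL/6ByJ, 5.86, 5.86 and 5.94 in BALB/cJ, and 5.69, 5.35 and 5.55 in B6By.C.132.54. B6By.C.132.54 was below both parental strains without overlap, by -0.47 from C57BL/6ByJ and -0.36 from BALB/cJ, and neither difference was called (limma adjusted p = 0.915 and 0.266). The other Slc25a26 probe set, 1453886_a_at, had B6By.C.132.54 at the BALB/cJ level (4.18 against 4.13, with 4.39 in C57BL/6ByJ).

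In the turnover and glycosylation group, Eogt, which adds N-acetylglucosamine to proteins in the endoplasmic reticulum, was lower than C57BL/6ByJ in both other strains on 2 of 3 probe sets. On 1433671_at C57BL/6ByJ read 5.72, 5.61 and 5.97, BALB/cJ 5.30, 5.44 and 5.46, and B6By.C.132.54 5.06, 5.44 and 5.34. The strains below C57BL/6ByJ did not overlap with it, and the same held on 1454678_s_at (limma adjusted p = 0.345 and 0.371 between the parental strains). Crbn, the substrate receptor of a ubiquitin ligase, differed from C57BL/6ByJ on its 3 probe sets by -0.21 to -0.11 in BALB/cJ and -0.23 to -0.13 in B6By.C.132.54, without a call. Sumf1, which activates sulfatases, Gxylt2, a xylosyltransferase, and Gmcl1, a BTB-domain protein, had parental differences between -0.20 and 0.13. On 1438887_a_at Gmcl1 read 7.03, 6.95 and 6.95 in C57BL/6ByJ, 6.82, 6.78 and 6.76 in BALB/cJ, and 6.61, 6.84 and 6.27 in B6By.C.132.54. Both other strains lay below C57BL/6ByJ without overlap (limma adjusted p = 0.864 between the parental strains), and B6By.C.132.54 overlapped BALB/cJ. The lowest B6By.C.132.54 value was on replicate 3, the array that stood apart.

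**Figure D2:**
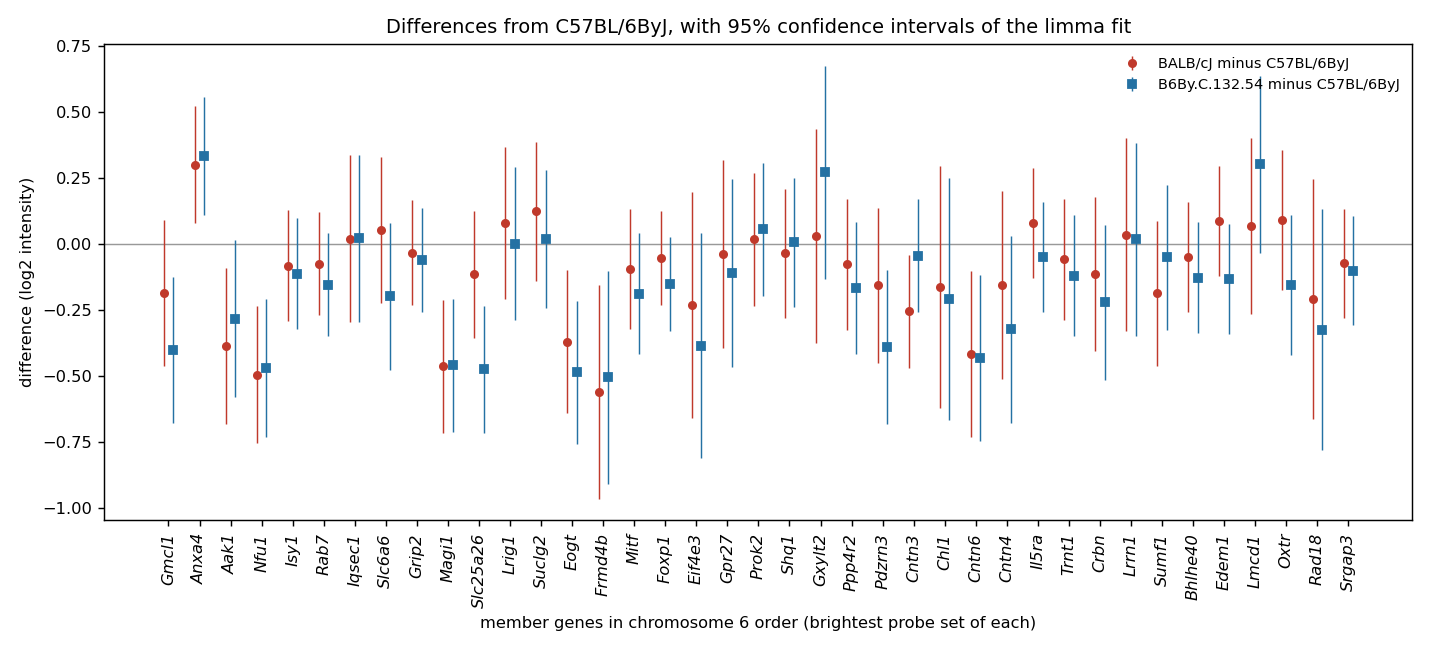
Differences from C57BL/6ByJ in log2 intensity for the brightest probe set of each of the 39 member genes, in chromosome order, for BALB/cJ (circles) and B6By.C.132.54 (squares); lines are 95% confidence intervals of the limma fit. Both strains share the C57BL/6ByJ arrays. Nfu1, Magi1, Eogt, Frmd4b and Cntn6 lie below 0 in both strains, and Anxa4 lies above 0 in both, with intervals that leave out 0.

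B6By.C.132.54 against each parental strain asks whose level the members carry. Neither comparison called a member: 0 of 104 against C57BL/6ByJ, where limma called 0% of all probe sets with or without the block, and 0 against BALB/cJ, where it called 1.28% of all and 1.85% with the block. Unadjusted p-values under 0.05 were found for 16 members against C57BL/6ByJ (12 lower, 4 higher; 3.89% of all probe sets) and for 6 against BALB/cJ (7.5% of all). Among the 16 were probe sets of Gmcl1, Aak1, Magi1, Slc25a26, Ppp4r2 and Pdzrn3 without an unadjusted parental p under 0.05. On 1 of these, Pdzrn3 1416846_a_at, B6By.C.132.54 differed from C57BL/6ByJ by -0.39 and BALB/cJ by -0.16. Members were lower than in C57BL/6ByJ by sign in 69 of 104 for B6By.C.132.54, where 53.9% of all probe sets were, and in 59 of 104 for BALB/cJ, where 43.8% were. At or above the median level, where most members lie, 52 of 66 members and 68% of all probe sets were lower in B6By.C.132.54, and for BALB/cJ these were 43 of 66 members and 51.3% of all. Over all probe sets, the array thus leaned the same way as the members in B6By.C.132.54 and the opposite way in BALB/cJ. At or above the median level it leaned the members' way in B6By.C.132.54 and hardly in BALB/cJ.

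The parental differences share the C57BL/6ByJ arrays with those of B6By.C.132.54, so both move with any error in those arrays. The share of the parental difference is 0 at the C57BL/6ByJ level and 1 at the BALB/cJ level. It was 0.947 for Nfu1 (1418228_at), 0.866 for Isy1, 0.902 for Frmd4b and 1.04 for Cntn6, so all 4 probe sets called with the block were nearer to BALB/cJ. Against BALB/cJ itself, B6By.C.132.54 differed by 0.03 (95% interval -0.23 to 0.29) for this Nfu1 probe set, -0.06 (-0.28 to 0.16) for Isy1, 0.06 (-0.35 to 0.46) for Frmd4b and -0.01 (-0.33 to 0.30) for Cntn6. On the side of C57BL/6ByJ each of these intervals ended short of the estimated parental difference. That estimate has a 95% interval of its own, -0.96 to -0.16 for Frmd4b and -0.73 to -0.10 for Cntn6. The 4 probe sets were also chosen by the test of that difference, so this does not exclude the C57BL/6ByJ level. Against C57BL/6ByJ itself, B6By.C.132.54 had a limma adjusted p of 0.915 for all 4. Against the middle of the parental strains, a contrast that does not share the error of the parental difference in groups of equal size, no member was called, where limma called 0.258% of all probe sets.

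Of the 14 member probe sets with an unadjusted parental p under 0.05, 12 were nearer to BALB/cJ and 2 nearer to C57BL/6ByJ. The 12 belong to 9 genes: Anxa4, Aak1, Nfu1, Isy1, Magi1, Slc25a26, Eogt, Frmd4b and Cntn6. The 2 are 1457658_x_at of Anxa4 and 1420739_at of Cntn3, both dim. In all 12 the interval of the difference from BALB/cJ held 0, and in 9 the interval of the difference from C57BL/6ByJ did not. Over all probe sets, 25.4% of those with such a parental p were nearer to BALB/cJ. In 9 members all arrays of both BALB/cJ and B6By.C.132.54 lay on the same side of all C57BL/6ByJ arrays (2.51% of all probe sets), and in 4 both C57BL/6ByJ and B6By.C.132.54 lay on the same side of BALB/cJ (5.13% of all). In 5 members B6By.C.132.54 lay outside both parental strains without overlap (1.72% of all): above them in 1 probe set each of Aak1 and Magi1, and below them in 1 each of Slc25a26, Foxp1 and Edem1. None of these 5 was called against either parent. Of the 104 member probe sets, 62 held a value shared exactly by 2 or more arrays. This Edem1 probe set, 1451218_at, was one of them, at 5.82 on all 3 C57BL/6ByJ arrays. The counts of arrays without overlap include such probe sets.

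Along chromosome 6 the called probe sets fell into a stretch near BALB/cJ and flanks near C57BL/6ByJ. Within the interval, 2 probe sets were called between the parental strains without the block and 6 with it, and all were nearer to BALB/cJ, with shares from 0.866 to 1.06. The 2 that are not members were Chchd4, of the mitochondrial intermembrane space import pathway, and the dimmest of the 3 probe sets of Grm7. Chchd4 was called in both fits (limma adjusted p = 0.000473, and 0.000237 with the block). The Grm7 probe set was called only with the block (limma adjusted p = 0.0348, and 0.173 without it). Chchd4 read 7.62, 7.30 and 7.32 in C57BL/6ByJ, 6.25, 6.39 and 6.13 in BALB/cJ, and 6.54, 6.19 and 6.44 in B6By.C.132.54, a share of 0.885. All 6 arrays of the last pair of strains lay below C57BL/6ByJ. The Grm7 probe set 1459532_at, below the median of all, read 2.60, 2.74 and 2.90 in C57BL/6ByJ, 3.08, 3.08 and 3.47 in BALB/cJ, and 3.09, 3.35 and 3.27 in B6By.C.132.54 (share 1.06). The brighter Grm7 probe sets, with parental differences of -0.17 and -0.02, were not called.

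Elsewhere on the chromosome, 11 probe sets were called without the block and 18 with it, and all of these were nearer to C57BL/6ByJ, with shares from -0.25 to 0.453. The nearest before the interval was Nat8f4, 19 measured genes before Gmcl1, at 0.330, and the nearest after it was Ogg1, a DNA glycosylase of base excision repair, 8 measured genes after Srgap3, at -0.07 and called with the block. Both probe sets were dim, and the name of that of Nat8f4 marks probes that can match other genes. Over all chromosomes, 12 of the 644 probe sets called without the block were nearer to BALB/cJ, and 54 of 953 with it. With 1 array left out and no block, this number ran from 4 of 434 (BALB/cJ replicate 2 out) to 29 of 633 (B6By.C.132.54 replicate 2 out). No gene called with the block lies between Nat8f4 and Nfu1 or between Grm7 and Ogg1, so the data place a change of position no more closely than that. Nfu1, Grm7 and Ogg1 were called only with the block. Without it the bounds were wider, from Nat8f4 to Isy1 and from Chchd4 to Adipor2.

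**Figure D3:**
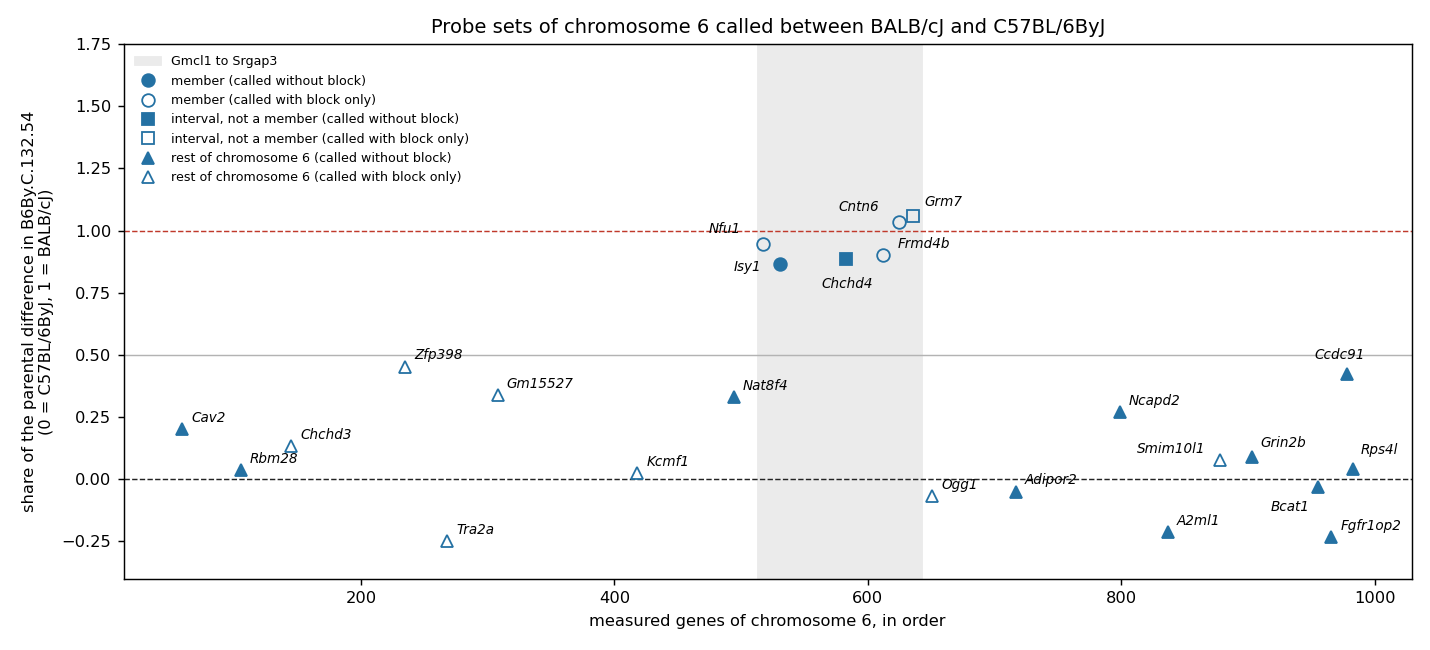
Share of the parental difference found in B6By.C.132.54 (0 at the C57BL/6ByJ level, 1 at the BALB/cJ level) for each chromosome 6 probe set called between BALB/cJ and C57BL/6ByJ, by the order of measured genes. The 6 probe sets in the shaded interval from Gmcl1 to Srgap3 lie at 0.866 or above, and the 18 outside it at 0.453 or below; open symbols were called with the replicate block only.

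Weaker parental differences did not separate the interval as cleanly. Among probe sets of the interval that are not members, 10 had an unadjusted parental p under 0.05 and 5 of them were nearer to BALB/cJ. In the 50 measured genes before the interval these were 0 of 2, in the 50 after it 2 of 3, and on the rest of chromosome 6 they were 18 of 80. The members were listed with these values known, so their 12 of 14 is not set against the 5 of 10 by a test.

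**Figure D4:**
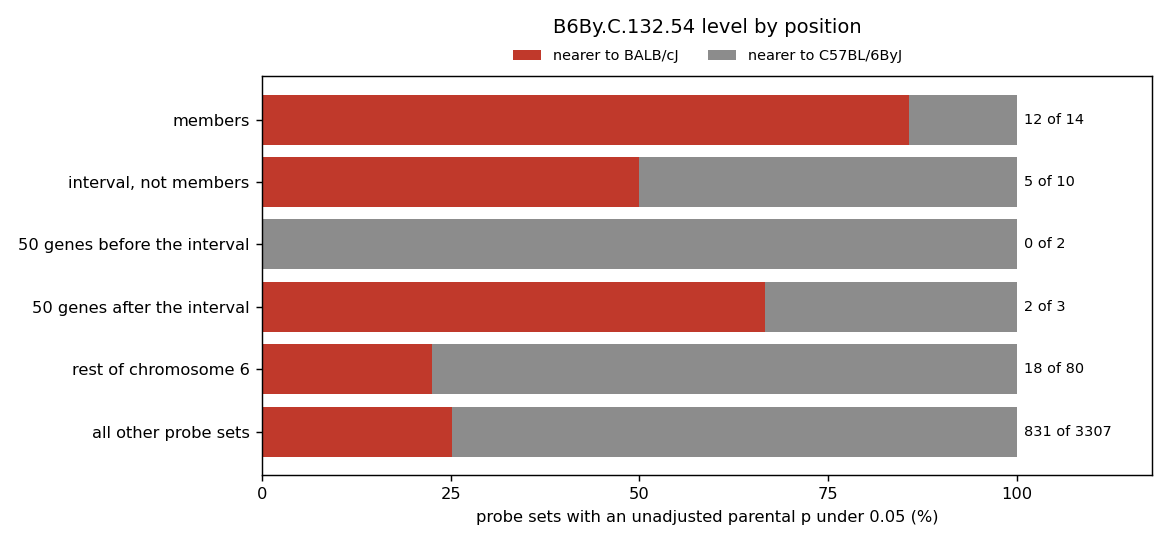
Percentage of probe sets nearer to BALB/cJ (dark red) or to C57BL/6ByJ (grey) in B6By.C.132.54, among those with an unadjusted parental p under 0.05, by position; counts nearer to BALB/cJ stand at the right. Members have 12 of 14, the other interval probe sets 5 of 10, and the rest of chromosome 6 18 of 80.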

How the data were processed

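Each of the 9 arrays measured 1 pool of brain hemispheres. The authors deposited 1 signal intensity per probe set on a linear scale; GCOS and RMA are named without versions per the submitters' processing notes, and background treatment and scaling are not given in the sources used here. Depth has no counterpart here: the number of arrays limits the precision. Intensities were taken to log2 with no offset and no further scaling. Control probe sets (64) were left out, and symbols were updated by Entrez identifier through RefSeq GRCm38.p6, used for names and gene order only.

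A mean per strain was fitted over all 45037 probe sets with limma 3.58.1 in R 4.3.3 (lmFit, eBayes, two-sided, Benjamini-Hochberg adjusted p under 0.05 over all probe sets), and checked on simulated data. Deviations of the 9 same-numbered array pairs correlated at 0.1469 to 0.5416, against -0.4579 to 0.1528 for the 18 other pairs, so the fit with the number as a block is also given. Pools are biological replicates per the labels.

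The members and lists were chosen with earlier results of these data known. Named in full, by rule, were called member probe sets with the other probe sets of their gene, Grm7, Chchd4 and the nearest called genes at the edges. The block calls, Magi1, Eogt, Aak1, Anxa4, Cntn3, Slc25a26 and Gmcl1 were named after their values were seen. A gene's brightest probe set represented it in gene order.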

Additional observations from a re-analysis of the deposited data

How the results depend on the processing

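The count of 1 called member probe set between the parental strains, and of 1 nearer to BALB/cJ, both became 4 with the replicate block. Both became 0 with arrays centred on their medians, with log2(intensity + 16) and with a variance trend, and the count of calls also became 0 when only the 6 parental arrays were fitted; both stayed at 1 under quantile normalization and without the dim probe sets. With 1 array left out, both ranged from 0 to 1. With the block and 1 array left out, chosen after the data were seen, calls were 0, 1, 2, 3 or 7 and those nearer to BALB/cJ 0, 1, 2, 3 or 6. At an unadjusted parental p under 0.05, also chosen afterwards, 12 were nearer to BALB/cJ. The 0 calls of B6By.C.132.54 against either parental strain stayed at 0 under these settings. The cause of these changes was not tested. The parental differences of Nfu1 (1418228_at) ran from -0.59 to -0.39 over the settings, those of Isy1 (1459728_at) from 0.27 to 0.52, of Frmd4b from -0.71 to -0.42 and of Cntn6 from -0.58 to -0.21. Median centring moved the median of all probe sets by under 0.1 in each comparison.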
